A study of Papio anubis and Macaca fascicularis and Castor canadensis with 48 samples.

Results

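The organ-dependent difference between baboon and long-tailed macaque is a contrast of contrasts. For each gene, the kidney difference between the species was taken on the log2 scale, baboon over macaque, and the liver difference was subtracted from it. A positive value means that baboon stood higher against macaque in kidney than in liver, and a negative value means the opposite. The contrast rests on 23 of the 48 libraries of the series, which are 6 baboon kidneys, 5 macaque kidneys, 6 baboon livers and 6 macaque livers. Of the 16816 genes in the table, 13600 had enough counts to be tested. A share of a gene's reads that is lost in 1 species, and is the same in both organs, cancels in the contrast. Reads gained from another gene follow that gene's level in each organ and need not cancel. Whether read assignment was alike in both organs was not tested.

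The samples were kidney and liver from wild-type male animals, which the labels call adult and the protocol young adult. The species were Papio anubis, a baboon, and Macaca fascicularis, the long-tailed macaque, and all 23 samples were collected at the Southwest National Primate Research Center. RNA was extracted from the frozen organs with the PureLink RNA Mini Kit and sequenced in bulk. The title of the series names signatures of longevity across mammals as the subject. The labels do not say whether the replicates were separate animals or whether a kidney and a liver of the same number came from 1 animal, so p-values measure only the spread between these samples. In bulk RNA, fewer cells of a type and less RNA per cell cannot be told apart.

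Kidney and liver share many tasks and divide others. The liver makes most proteins of blood plasma, synthesises bile acids and urea, stores glycogen and modifies fats and foreign compounds. The kidney filters plasma in the glomerulus and then recovers salts, glucose and amino acids in the tubule, where each segment has its own set of transporters. Both organs make glucose and break down amino acids, and both carry large families of oxidising and conjugating enzymes. Baboon and macaque are closely related Old World monkeys, so most of their genes are direct counterparts of each other. A change in the regulation of a gene can shift its level alike in every organ, and then cancels in the contrast studied here. A change that acts in a single organ, or by unequal amounts or in opposite directions in the organs, appears in the contrast.

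Genes are known here only by mouse Ensembl IDs, which the files do not pair with gene names. No gene is therefore named or given a function, and at most 2 IDs with a positive and 2 with a negative contrast are printed. Groups of genes are instead described by what the data themselves give, which is the organ in which the species differ, the level in each organ and the kidney to liver ratio in another species, the bear. Lists of marker genes for the cell types of both organs could not be matched to the IDs. The organ labels were set beside the bear libraries instead. All 11 primate kidneys were closer to the bear kidney than to the bear liver, with Spearman's rho across the 13600 genes of 0.733 to 0.756 against 0.665 to 0.676. All 12 primate livers were closer to the bear liver, with rho of 0.61 to 0.651 to the bear kidney and 0.809 to 0.824 to the bear liver.

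Total counts averaged 17.3 ± 1.3 M in baboon kidney, 18.9 ± 1.4 M in macaque kidney, 25.3 ± 0.784 M in baboon liver and 24.1 ± 1.92 M in macaque liver (M, mega; SD, n = 6, 5, 6 and 6). A few genes took a large part of the liver counts. The 10 most abundant genes held 14.5 ± 1.89% of counts in baboon kidney and 15.9 ± 3.91% in macaque kidney, against 33.1 ± 4.29% in baboon liver and 30.8 ± 2.57% in macaque liver. The library size after TMM scaling, which discounts such genes, averaged 28.5 M in baboon kidney, 30 M in macaque kidney, 15.7 M in baboon liver and 16.1 M in macaque liver. Genes at 1 CPM or more (CPM, the count of a gene scaled to the library's total) numbered 12436 ± 130 in baboon kidney and 12312 ± 71.1 in macaque kidney, against 10914 ± 105 in baboon liver and 10904 ± 177 in macaque liver. Between the species, neither the total, the number of genes at 1 CPM nor the share of the 10 most abundant genes passed a two-sided exact permutation test in either organ (exact p of 0.0909 to 0.931, adjusted over 6 tests 0.292 to 0.931).

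The libraries fell into their 4 labelled groups. The first principal component, with 70.9% of the variance, separated kidneys from livers, and the second, with 10.9%, separated baboon from macaque. The third, with 3.47%, carried the contrast described here. On it baboon kidneys lay between 23.8 and 33.7 and macaque livers between 16.4 and 27.8, while macaque kidneys lay between -35.5 and -32.8 and baboon livers between -27.9 and -17.8. In a direct split of the sum of squares over all tested genes, organ held 70.8%, species 10.8%, the organ-by-species term 3.52% and the spread within groups 14.9%. The fourth component, with 1.96%, set macaque liver replicates 1 and 2, at -41.2 and -60.4, apart from the other macaque livers at 23.2 to 34.5. Macaque kidney replicates 1 and 2 lay on the same side, at -16.1 and -14, against 7.34 to 12.6 in the other macaque kidneys. Baboon liver replicates 5 and 6 were close to each other and far from replicates 1 to 4, with a chi-square per degree of freedom of 43.8 between the pair and 196 to 254 to the others. Both pairs of livers were left out in turn, a choice made after the data had been seen, and the values without them are given with the results.

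**Figure D1:**
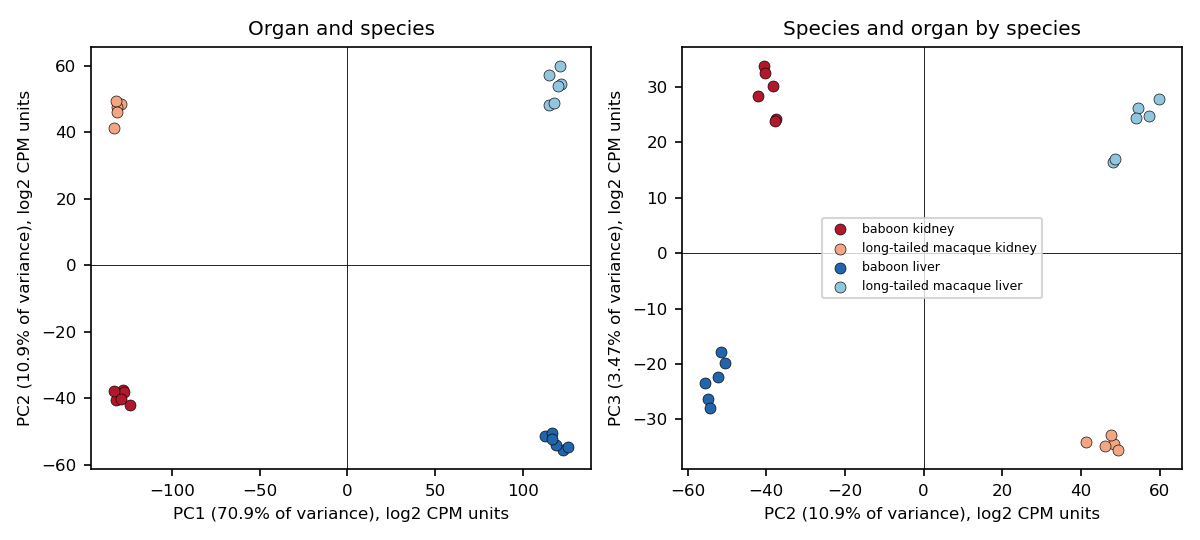
Each point is 1 library, coloured by group, placed by its scores on principal components 1 and 2 (left) and 2 and 3 (right) in log2 CPM units. Component 3 puts the baboon kidneys at 23.8 to 33.7 and the macaque livers at 16.4 to 27.8 on 1 side, with the macaque kidneys at -35.5 to -32.8 and the baboon livers at -27.9 to -17.8 on the other.

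The species difference depended on the organ for 1361 of the 13600 tested genes, which is 10% (edgeR's quasi-likelihood F test with Benjamini-Hochberg adjustment, adjusted p under 0.05). At an unadjusted p under 0.05 there were 3249. The contrast was positive for 708 genes, 5.21% of those tested, and negative for 653, or 4.8%. The median size of the contrast was 1.54 on the log2 scale in the called genes and 0.33 in all tested genes. It reached 1 in 961 called genes, 494 positive and 467 negative, and it reached 2 in 523, of which 261 were positive and 262 negative. The median of the signed contrast over all tested genes was 0.036. The near-even split depends on the normalization for composition: with library totals alone that median was 0.197, and 72.5% of 1688 called genes were positive, against 52% here.

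In each organ the species difference itself was common. Baboon and macaque kidneys differed in 2906 genes, or 21.4% of those tested, of which 1496 were higher in baboon and 1410 lower. Baboon and macaque livers differed in 4407 genes, or 32.4%, of which 2135 were higher in baboon and 2272 lower. With library totals alone, 60% of the kidney calls and 34.7% of the liver calls were higher in baboon, against 51.5% and 48.4% here. Kidney against liver differed in 8850 genes in baboon (65.1%) and in 8601 genes in macaque (63.2%).

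The 1361 organ-dependent genes were sorted by the organ in which the species differed. The largest group, 727 genes or 53.4%, was called between the species in liver and not in kidney, and is called liver-limited below. A missed threshold in kidney does not show that the species were alike there. In 345 of these the gene was higher in baboon liver and in 382 it was lower, with a median absolute difference of 0.25 in kidney and 1.24 in liver. A second group of 366 genes, or 26.9%, was called in kidney and not in liver, and is called kidney-limited, with 188 higher and 178 lower in baboon kidney. Its median absolute difference was 1.41 in kidney and 0.27 in liver. In 122 genes (8.96%) the species differed in both organs and in opposite directions. In 112 genes (8.23%) they differed in the same direction by unequal amounts, with medians of 1.6 in kidney and 1.94 in liver. The remaining 34 genes (2.5%) passed for the contrast and in neither organ alone.

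**Figure D2:**
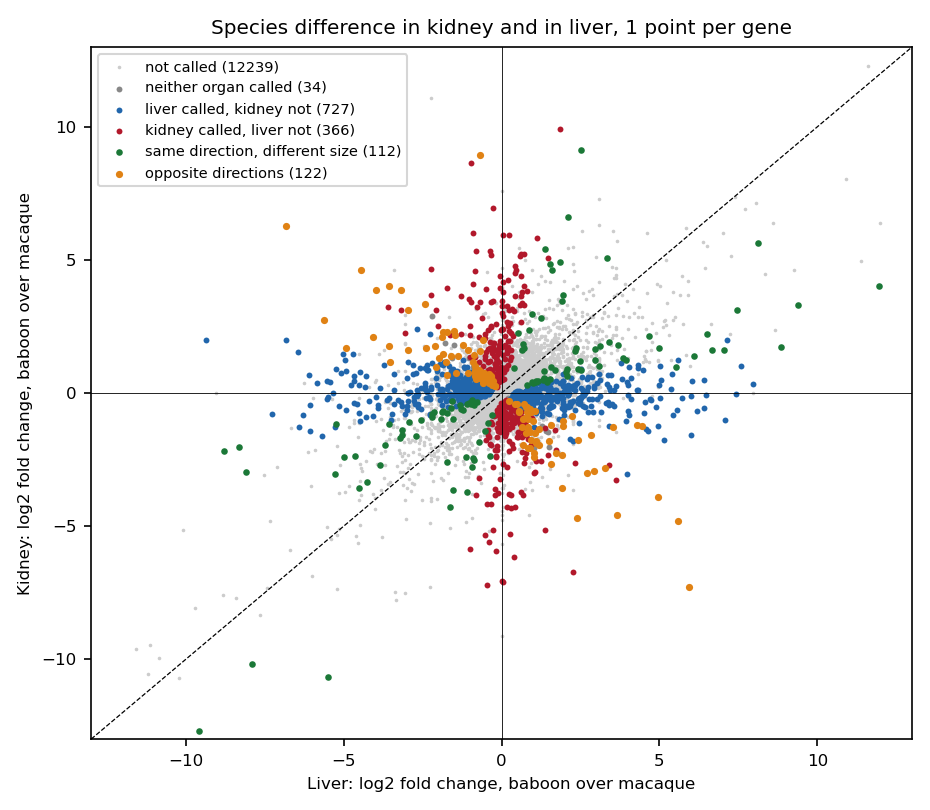
Each point is a tested gene, placed by its log2 fold change of baboon over macaque in liver (horizontal) and in kidney (vertical). Genes on the dashed diagonal differ alike in both organs. The 727 genes called in liver and not in kidney lie along the horizontal axis, the 366 called in kidney and not in liver along the vertical axis, and the 122 of opposite direction in the upper left and lower right.

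The order of the organs in the species calls changed with how the libraries were fitted. Livers varied more than kidneys. The median SD of log2 CPM within a group was 0.25 in baboon kidney and 0.24 in macaque kidney, against 0.33 in baboon liver and 0.39 in macaque liver, and it was larger in the livers for 79.9% of the tested genes. The fit above uses 1 spread per gene for all 4 groups. When each organ was fitted alone on the same 13600 genes, 4119 genes were called between the species in kidney and 3096 in liver. With a filter on low counts for each organ as well, 13082 and 11948 genes were tested and 4046 and 2961 called. Limma-voom called 3541 genes in kidney and 3805 in liver without weights, and 4268 in kidney and 3207 in liver when each group had its own weight. The fits of single organs and the weights were added after the data had been seen. Fits of single organs cannot test the contrast, so the 1361 organ-dependent genes stayed as they were, and by the new species calls 572 of them were liver-limited and 453 kidney-limited. The weighted fit called 1146 genes of its own for the contrast, of which 1017 were among the 1361, with 515 liver-limited and 391 kidney-limited.

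**Figure D3:**
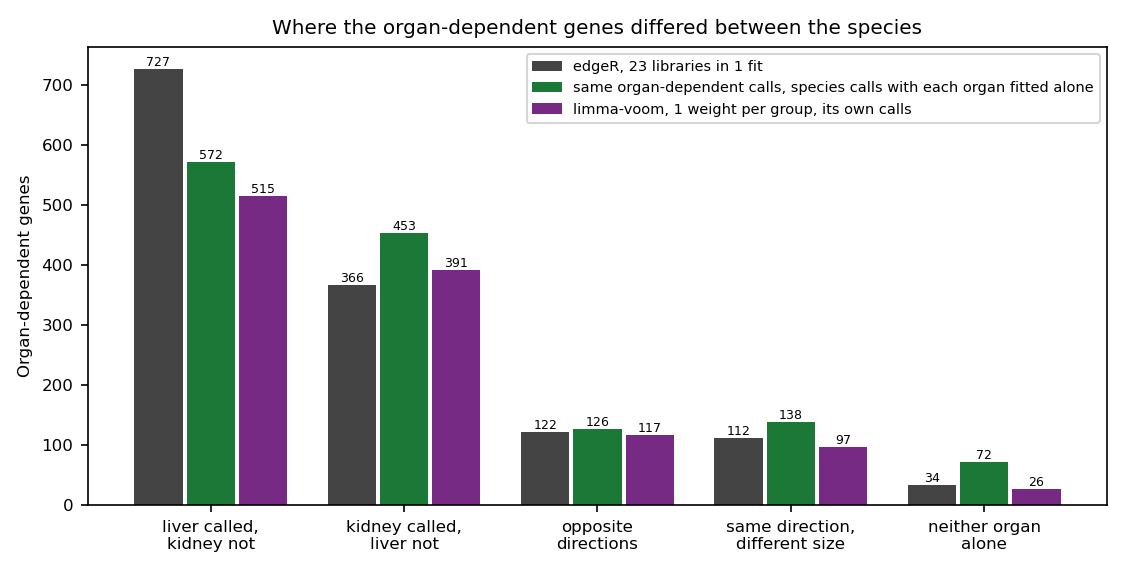
Bars give the number of organ-dependent genes in each pattern of species calls under 3 ways of making the calls. The first 2 sort the same 1361 genes and the last sorts the 1146 of the weighted fit: the liver-limited group holds 727, 572 and 515 genes, the kidney-limited group 366, 453 and 391, and the opposite group 122, 126 and 117.

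The count of genes of opposite direction was 126 with the organs fitted alone on the same genes and 117 with the weights, against 122 in the single fit. Of the 122, baboon was higher in kidney and lower in liver for 66 and lower in kidney and higher in liver for 56. Their contrasts were the largest of any pattern, with a median size of 2.58 and a 90th percentile of 6.58, as follows from adding 2 differences of opposite sign. In 52 of them every group averaged at least 5 CPM. Among those, 32 also had baboon and macaque libraries that did not overlap in the organ of the larger difference. That held for a similar share of all called genes at this level, 359 of 625, and so does not mark out the opposite group. In 20 of the 32 the contrast was positive, with a median of 0.57 in kidney and -0.49 in liver. In the other 12 it was negative, with a median of -1.42 in kidney and 1.03 in liver. Without macaque liver replicates 1 and 2 the opposite group held 132 genes, the liver-limited group 711 and the kidney-limited group 403, out of 1393 called, of which 1072 were among the 1361. Without baboon liver replicates 5 and 6 the groups held 113, 679 and 346 genes in the same order, out of 1277 called, of which 1044 were among the 1361.

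Read the other way round, the contrast asks whether the kidney to liver ratio of a gene differs between the species. A gene was counted as higher in an organ where that comparison was called. Kidney was higher in both species for 3622 genes, of which 325 were organ-dependent (8.97%), and liver was higher in both for 3305 genes, of which 278 were (8.41%). Both shares are a little under the 10% of all tested genes. In 64 genes the higher organ was kidney in baboon and liver in macaque, with a median log2 ratio of kidney to liver of 1.26 in baboon and -1.17 in macaque. In 66 genes it was liver in baboon and kidney in macaque, with medians of -1.08 and 1.12. All 130 were called for the contrast, as calls of opposite sign in the 2 species make likely. Every group averaged at least 5 CPM in 22 of the 64 and in 27 of the 66. Where the organs differed in 1 species alone, 17.7% to 20.4% of genes were organ-dependent, and where they differed in neither, 3 of 3206 were. The contrast is the difference of these same organ comparisons, so the shares are descriptions that largely follow from how it is built.

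Called shares were also taken by level. CPM takes no account of gene length, so the bands that follow mix short and long genes. Among the 7658 genes with a mean of at least 5 CPM in each group, 625 were called (8.16%), 315 positive and 310 negative. Genes under 1 CPM in at least 1 group made up 33.6% of the called genes (457) and 24.3% of the tested genes (3303). By mean CPM over the groups, the called share was 6.36% of 1100 genes under 1 CPM, between 9.54% and 11.3% in each band from 1 to 300 CPM, and 14.3% of 384 genes above 300 CPM. The median size of a called contrast was 4.4 in the lowest of these bands and 0.98 in genes of 30 to 100 CPM. Of the 167 genes that reached 1000 CPM in some group, 34 were called (20.4%).

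The share of counts that the organ-dependent genes took was then added up. Together the 1361 genes took 8.5 ± 0.236% of counts in baboon kidney, 9.16 ± 0.699% in macaque kidney, 33.9 ± 3.88% in baboon liver and 32 ± 3.53% in macaque liver. The most abundant of them, a kidney-limited gene, alone took 19.4 ± 4.99% in baboon liver and 17.5 ± 3.14% in macaque liver. The gene was at a trace level in kidney, with 0.0328 ± 0.0147% in baboon and 0.0051 ± 0.00136% in macaque. It differed between the species by 2.63 in kidney (edgeR's adjusted p = 4.96e-05) and by 0.27 in liver (adjusted p = 0.6). Without it the shares were 8.46 ± 0.241% in baboon kidney, 9.15 ± 0.7% in macaque kidney, 14.5 ± 1.27% in baboon liver and 14.4 ± 0.969% in macaque liver. Genes nearly absent from 1 species in both organs numbered 34 among those tested, and 9 of them were called (26.5%, against 10% of all tested genes). By definition both organs of 1 species were under 1 CPM in these genes, so part of the contrast rests on near-zero counts. Of 16 tested genes under 1 CPM in both macaque organs and at 20 CPM or more in a baboon organ, 5 were called. Of 18 genes with the reverse pattern, 4 were called. Libraries of the 2 species did not overlap in the organ of the larger difference for 812 of the 1361 called genes (59.7%), against 21.4% of all tested genes and 10% called in all. Both measures use the same values as the call, so both shares are descriptions.

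Among the 359 organ-dependent genes with at least 5 CPM in every group and libraries that did not overlap in the organ of the larger difference, the 8 with the largest contrasts ranged from 1.97 to 5.3 and the 8 with the most negative from -3.15 to -2.63. The positive 8 held 3 kidney-limited, 2 liver-limited, 1 opposite and 2 same-direction genes. The negative 8 held 2 kidney-limited, 1 liver-limited and 5 opposite genes. The first 2 of each direction follow with their values in the libraries. Larger contrasts occurred without the minimum of 5 CPM in every group: among all candidates with 20 CPM in some group, the next 6 positive ranged from 5.76 to 9.61 and the next 6 negative from -7.46 to -5.74. In 4 of these 12 genes a group had no counts at all, so those fitted values are not bounds.

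ENSMUSG00000064246 had the largest positive contrast of the 359 genes and was liver-limited. In kidney it had a lowest, median and highest value of 67, 105 and 157 CPM in baboon, and 95.1, 51.1, 306, 62.8 and 102 CPM in the 5 macaque libraries. The kidneys of the species overlapped, and macaque replicate 3 stood far above its group. In liver it had 2.5, 10.3 and 38.1 CPM in baboon, against 469, 671 and 1330 CPM in macaque. Every baboon liver lay far below every macaque liver. The species difference was -0.23 in kidney (adjusted p = 0.83) and -5.52 ± 0.67 in liver (SE, adjusted p = 1.76e-06), and the contrast was 5.30 ± 0.87 (adjusted p = 0.000323, all from edgeR). Without macaque kidney replicate 3 the contrast was 5.99. Kidney stood above liver in baboon, with a log2 ratio of 1.36, and below it in macaque, with -3.94. The ratios are on TMM-scaled values, which lower kidney against liver and are therefore not those of the printed CPM. In the livers of beaver, bat, white-footed mouse, sugar glider, chipmunk and bear, from 0.463 to 17.4 CPM were counted.

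ENSMUSG00000060807 was the second positive gene and was kidney-limited. In kidney it had 65, 119 and 143 CPM (lowest, median, highest) in baboon, and 1.29, 27.9, 0.335, 9.99 and 25.4 CPM in macaque. No macaque kidney reached the lowest baboon kidney, and the macaque values spread widely among themselves. In liver it had 752, 848 and 1118 CPM in baboon and 424, 722 and 1109 CPM in macaque, with wide overlap. The species difference was 3.07 ± 0.63 in kidney (adjusted p = 0.00109) and 0.39 in liver (adjusted p = 0.622), and the contrast was 2.68 ± 0.80 (edgeR's adjusted p = 0.0331). That call was lost in edgeR without baboon kidney replicate 6 (adjusted p = 0.0538), macaque kidney replicate 5 (0.0633), baboon liver replicate 2 (0.0508) or 4 (0.0532), or macaque liver replicate 3 (0.0529) or 4 (0.0593). Liver stood above kidney in both species, with a TMM-scaled log2 ratio of kidney to liver of -4.38 in baboon and -7.06 in macaque, and in bear, with 152 CPM in liver and 0.138 CPM in kidney. The livers of the other species ranged from 95 CPM in bat to 5725 CPM in a sugar glider.

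ENSMUSG00000028189 had the most negative contrast of the 359 genes, and the species differed in opposite directions in the organs. In kidney it had 4.28, 8.83 and 11.8 CPM (lowest, median, highest) in baboon, and 28.4, 27.8, 35.5, 31.7 and 26.5 CPM in macaque. In liver it had 88.1, 125 and 164 CPM in baboon and 51.6, 59.4 and 65.2 CPM in macaque. The species overlapped in neither organ: all baboon kidneys were below all macaque kidneys, and all baboon livers were above all macaque livers. The differences were -1.96 ± 0.19 in kidney (adjusted p = 1.11e-07) and 1.19 ± 0.18 in liver (adjusted p = 2.58e-05), and the contrast was -3.15 ± 0.26 (edgeR's adjusted p = 2.1e-07). Liver exceeded kidney in both species, with a TMM-scaled log2 ratio of kidney to liver of -5.36 in baboon and -2.22 in macaque. Both bear libraries were near 0, at 0.275 CPM in kidney and 0.134 CPM in liver.

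ENSMUSG00000026691 was the second negative gene and was kidney-limited. In kidney it had 5.86, 7.67 and 15.9 CPM (lowest, median, highest) in baboon and 28.6, 18, 58.2, 64.3 and 38.2 CPM in macaque, with no overlap. In liver it had 560, 1448 and 1959 CPM in baboon and 596, 787 and 1059 CPM in macaque, with overlap. The differences were -2.27 ± 0.33 in kidney (adjusted p = 3.46e-05) and 0.77 in liver (adjusted p = 0.058), and the contrast was -3.05 ± 0.45 (edgeR's adjusted p = 0.000112). Liver was far above kidney in both species, with TMM-scaled log2 ratios of -8.62 in baboon and -5.57 in macaque. The bear had no count in kidney and 13.6 CPM in liver. Without macaque liver replicates 1 and 2 the contrasts were 5.19 for ENSMUSG00000064246, 2.79 for ENSMUSG00000060807, -3.16 for ENSMUSG00000028189 and -2.94 for ENSMUSG00000026691, and all 4 calls held (edgeR's adjusted p of 0.000799, 0.0415, 1.32e-06 and 0.000634). Without baboon liver replicates 5 and 6 they were 6.5, 2.72, -3.06 and -3.01 in the same order of genes, and the call of ENSMUSG00000060807 was lost (edgeR's adjusted p of 2.85e-05, 0.0581, 8.22e-07 and 0.000401). Of the 4 genes, 3 stood higher in liver than in kidney in both species and were called between the species in kidney. Of these 3, ENSMUSG00000028189 was called in liver too.

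**Figure D4:**
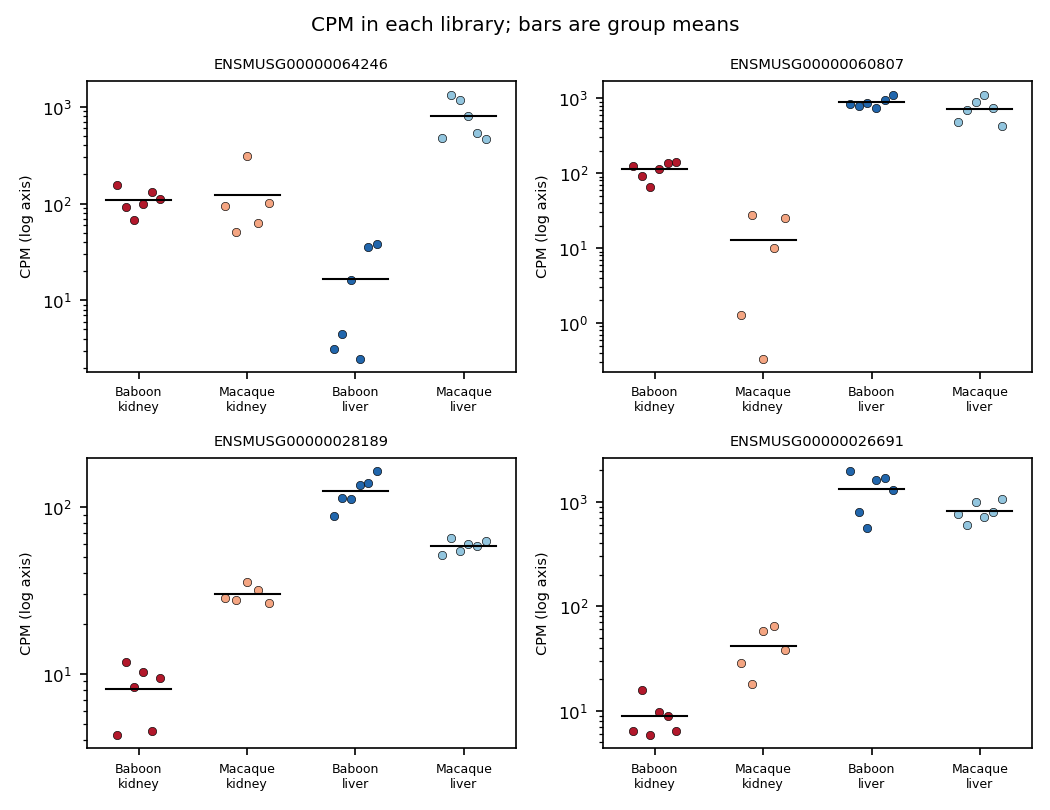
Points give CPM in each of the 23 libraries on a log axis for the 2 most positive and the 2 most negative of the 359 genes, and bars give group means. The top left gene separates the species in liver, where baboon lies at 2.5 to 38.1 and macaque at 469 to 1330 CPM, and the other 3 separate them in kidney, as ENSMUSG00000028189 does in liver too.

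Low levels of liver genes in kidney, and of kidney genes in liver, were then counted over all genes, a choice made after the values above were seen. Among 89 genes with at least 100 CPM in both species' livers and a kidney level of at most 1 part in 64 of the liver level in both species, 18 were organ-dependent (20.2%, against 10% of all tested genes). In 14 of the 18 the contrast was positive and in 4 negative. Among 87 kidney genes at such a trace level in liver, 11 were organ-dependent (12.6%), with 3 positive and 8 negative. None of the printed genes was among the 89 or the 87, since each exceeded 1 part in 64 in at least 1 species. The kidney level of the 82 genes with at least 1000 CPM in both livers was as low as 0.022% of the liver level in baboon and 0.0193% in macaque, with medians of 2.12% and 5.15%. For the 57 genes with at least 1000 CPM in both kidneys the lowest liver level was 0.00752% of the kidney level in baboon and 0.00371% in macaque. The part that other cell types have in these low levels was not tested, since no marker could be matched.

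The bear gave a ratio of kidney to liver that the primate libraries did not set, from 1 library of each organ and so with no replicate error. The called share is given by class of that ratio as a description, since genes are not replicates. Of the 1050 genes at least 4-fold higher in bear kidney, 147 were organ-dependent (14%), and of the 1378 at least 4-fold higher in bear liver, 187 were (13.6%). The share was 7.16% of 2681 genes whose bear organs were 2-fold to 4-fold apart and 8.1% of 4137 genes within 2-fold. Among the remaining 4354 genes, under 5 CPM in both bear organs, it was 11.5%. Over all tested genes the median size of the contrast was 0.47 in the bear kidney class and 0.43 in the bear liver class. It was 0.22 in genes within 2-fold, and the bear class was not separated from the level in each organ. By pattern, in the bear kidney class 92 genes were liver-limited and 31 kidney-limited, and in the bear liver class 81 were liver-limited and 70 kidney-limited. Genes within 2-fold in bear gave 200 and 73, and all organ-dependent genes 727 and 366.

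**Figure D5:**
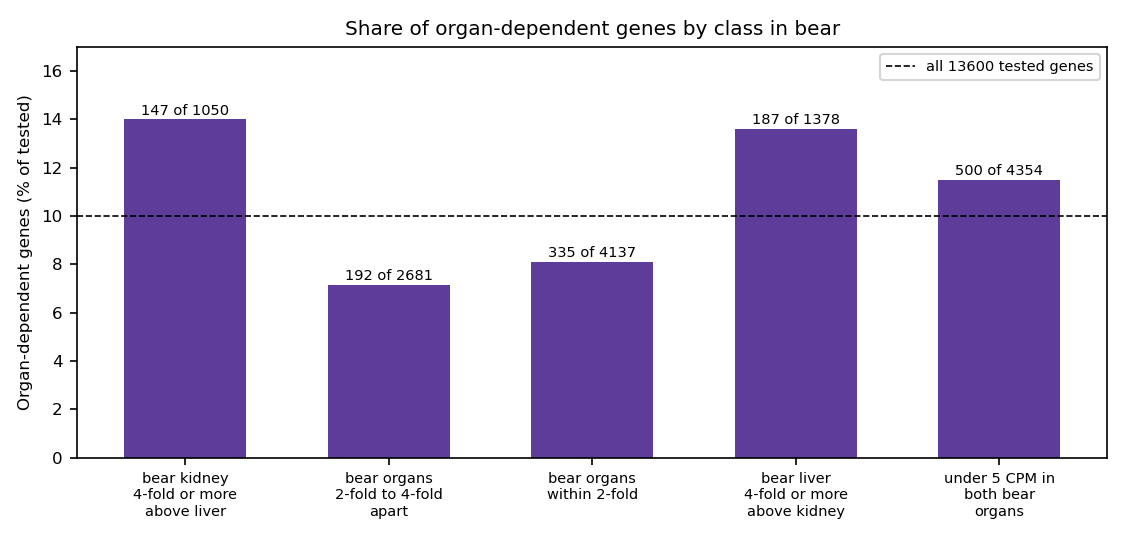
Bars give the share of tested genes that were organ-dependent, by the kidney to liver ratio in 1 bear kidney and 1 bear liver, with the counts above them and the share of all tested genes as a dashed line. Genes at least 4-fold higher in an organ of the bear stand at 14% and 13.6%, and genes within 2-fold at 8.1%.

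The bear ratio was nearer the baboon ratio in about the same share of organ-dependent genes as of all tested genes. The ratios were compared where bear had at least 5 CPM in 1 of its organs, which held for 861 organ-dependent genes. The bear ratio was nearer the baboon ratio in 453 of them, or 52.6%, against 52.1% of all 9246 tested genes with a bear value. The share was 54.5% of the 451 positive genes and 50.5% of the 410 negative genes. For the liver-limited genes it was 53.7% of 482, for the kidney-limited 50.2% of 225 and for those of opposite direction 51.4% of 72. In the 32 genes with a bear value whose higher organ was kidney in baboon and liver in macaque, the bear's kidney was higher in 19 and its liver in 13. In the 35 with a bear value and the reverse pattern, the bear's kidney was higher in 18 and its liver in 17.

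Brain libraries of the same species, which did not enter the contrast, gave the breadth of expression. Among 9945 genes with at least 5 CPM in both baboon brain and macaque cerebellum, 917 were organ-dependent (9.22%, against 10% of all tested genes), with a median size of 1.16. Among 1108 genes under 1 CPM in both, 129 were (11.6%), with a median size of 3.84. The 2547 genes between gave 315 (12.4%), with a median of 2.58. All 3 shares lie near that of all tested genes. Over all tested genes the median size was 0.26, 1.05 and 0.6 in the same order of classes, so the broadly expressed genes had smaller contrasts whether called or not. Contrasts were also smaller in genes of 30 to 100 CPM than under 1 CPM, and breadth was not separated from level.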

How the data were processed

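Gene expression was read from 1 table of raw read counts that the authors deposited, with 48 columns, each matched to a sample by name, and 16816 mouse Ensembl IDs as rows. The counts are not normalized. The submitters' processing notes name STAR, an aligner, and featureCounts, a counter of reads per gene. Versions, builds, strand setting and how monkey reads came to be counted under mouse IDs: not given in the sources used here. Low counts (1 to 20) were even in 97.7% to 99.4% of cases per library of the contrast, so the reads of a pair were probably counted separately. Near-identical gene copies, between which reads may be split, and overlapping genes could not be recognised by ID.

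The 23 libraries were fitted in edgeR 4.0.16 (R 4.3.3) with a mean per species and organ, TMM factors, filterByExpr by group and the two-sided quasi-likelihood F test, adjusted by the Benjamini-Hochberg method over 13600 genes. SEs were derived from the F statistic. No replicates agreed within sampling noise, since the lowest chi-square per degree of freedom between replicates was 33.1. If the reads of a pair were counted separately, this value is inflated, and its size does not measure the excess over sampling noise. CPM is the count of a gene scaled to its library's total, and bear ratios use TMM-scaled CPM plus 0.5. Alternatives used DESeq2 1.42.0, limma-voom 3.58.1, other factors, other filters, a replicate block and each library left out. The printed IDs are the first 2 per direction by contrast among called genes with at least 5 CPM in each group and no overlap in the organ of the larger difference. The rule's other parts need gene symbols or longer lists and gave counts and ranges only. Members, lists and rules were chosen with earlier results of these data known. Intervals of counts are not given, and depth is read from the total counts. The lists of gene symbols and cell type markers could not be tested.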

Additional observations from a re-analysis of the deposited data

Results flagged for a closer look

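For ENSMUSG00000064246, macaque kidney replicate 3, at 306 CPM, stood apart from the other macaque kidneys at 51.1 to 102 CPM by Dixon's criterion. It was the single such value among 28 groups of values, of which chance alone would give about 1 in 20.

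Each of the 4 printed genes differed between the organs in its species difference by the test of that difference itself. The contrast was 5.30 for ENSMUSG00000064246, 2.68 for ENSMUSG00000060807, -3.15 for ENSMUSG00000028189 and -3.05 for ENSMUSG00000026691 on the log2 scale, with edgeR's adjusted p of 0.000323, 0.0331, 2.1e-07 and 0.000112. The genes were picked for the size of these contrasts.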

How the results depend on the processing

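The number of organ-dependent genes was 1361 here, 1918 in DESeq2 and 1205 in limma-voom, each out of 13600 tested genes. With all 48 libraries fitted it was 1735 out of 15456 tested genes, of which 1270 were among the 1361. With each library left out in turn it ran from 1146 to 1423, and 927 of the 1361 genes were called each time. Restricting to genes of at least 1 CPM in each group left 10297 tested genes, of which 854 were called. These held 483 liver-limited, 223 kidney-limited, 71 opposite and 61 same-direction genes, and 16 called in neither organ alone. Of the 854, 551 had the larger difference in liver. DESeq2 gave 171 same-direction genes and 71 called in neither organ alone. The last group, 34 genes here, held 73 with library totals alone, 64 with all libraries fitted, 133 with the organs fitted and filtered apart and 72 with them apart on the same genes, and 28 to 53 with a library left out, the most without baboon liver replicate 6. The cause was not tested. The species calls ran from 2397 to 3143 in kidney and from 3964 to 4361 in liver with a library left out. No alternative reversed a sign among the 4 printed genes.

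Kidneys and livers share replicate numbers within a species. All 11 kidneys correlated best with the liver of their own number. Own-number r was 0.07 to 0.26, and the highest r with another number was 0.02 to 0.11. Not every pair passed 0.1, which 9 of 11 did, but that cut is not a test of pairing. The pairing is read from the data and not from the design. The main fit does not use it, and treats a kidney and a liver of the same number as independent. With the number as a replicate block, 1391 genes were called, 691 positive, of which 1078 were among the 1361. The contrast of ENSMUSG00000060807 was then 3.27 (edgeR's adjusted p = 0.0528), so its call was lost. No block could be fitted for a species difference within an organ, where each number holds 1 library. Genes with a mean under 1 CPM, where depth is thinnest, were called in 6.36% of cases, and the part of depth in that share was not tested.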
